A study of Mus musculus with 16 samples.

Results

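The 10 genes described here encode sensors of foreign or misplaced nucleic acid and 1 signalling partner: the cytosolic RNA receptors Ifih1 (MDA5), Ddx58 (RIG-I, called Rigi in the labels) and Dhx58 (LGP2), their adaptor Mavs, the DNA sensors Cgas and Aim2, the Z-form nucleic acid sensor Zbp1, the RNA-activated kinase Eif2ak2 (PKR), and the endosomal receptors Tlr3 and Tlr9. They were taken from a fixed list of names, all 10 of which were found in the mouse assembly GRCm38, among 21631 protein-coding genes of the autosomes and the X chromosome. Each gene was measured over a window that spans its annotated body plus 10 kb on either side.

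Trimethylation of lysine 27 of histone H3 (H3K27me3), the mark that the methyltransferase EZH2 places on silenced genes, had been mapped by ChIP-seq in splenic B cells. The cells came from C57BL/6 mice 6 to 8 weeks old, selected with CD43 microbeads, and were cultured for 48 hours with 2 ng/mL BAFF and 2 ng/mL IL-4. The 4 groups were wild type (WT) in the solvent DMSO, WT in 1 µM of the EZH2 inhibitor GSK343, and Ifih1/Rigi/cGAS triple mutants (called mutant below) in DMSO or in the inhibitor; 3 of the 10 genes are thus themselves mutated in 2 of the groups, and the labels do not give the alleles. Each group had 2 ChIP samples and 2 inputs but is represented by 1 list of broad peaks, whose peak names point to pooled duplicates. The names in the mutant lists end in 1, so it cannot be told whether those lists rest on both replicates.

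Because there is 1 list per group and no value per replicate, no difference below could be tested against a replicate spread, and each is a description of these lists. A peak list holds no reads: it cannot show whether the mutated genes are disrupted, and depth is unknown. The lists held 39495 (DMSO) and 11903 (GSK343) peaks over 84.3 and 21.1 Mb in WT, and 49803 and 10847 peaks over 134 and 16.95 Mb in the mutant, so a gene can differ between lists in the direction the whole list does. Cell type genes are given as a description. None of 6 B cell genes (Cd79a, Cd79b, Ms4a1, Cd22, Pax5 and Ebf1) had a peak in its window in any of the 4 lists. The same held for 41.8% of all protein-coding windows, so lack of a peak does not by itself show the cell type. Of 5 T and NK cell genes, Cd3e, Cd4 and Gata3 had a peak in all 4 lists, while Cd8a and Ncr1 had none; of 4 myeloid genes, Cebpa had a peak in all 4, Lyz2 in mutant DMSO alone, and Csf1r and Itgam in none.

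Several nucleic acid sensors set off the type I interferon response. MDA5 and RIG-I bind double-stranded RNA in the cytosol and signal through MAVS on mitochondria; cGAS binds DNA in the cytosol and makes a cyclic dinucleotide that activates STING; AIM2 binds DNA and assembles an inflammasome; TLR3 and TLR9 read RNA and DNA inside endosomes. Many of these genes are induced by interferon themselves, and B cells are known for strong responses through TLR9.

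The sensors divided into 3 with no peak in any list (41.8% of all protein-coding windows had none), 5 with peaks that lay almost entirely in the flanks, and 2, Cgas and Aim2, with a peak in all 4 lists (25.4% of all windows). Under DMSO, 6 of the 10 windows held a peak in WT, where 50.9% of all protein-coding windows did, and 7 of 10 held one in the mutant, against 56.6%. Under GSK343 the count was 2 of 10 in WT, against 30.7% of all windows, and 3 of 10 in the mutant, against 28.1%. These shares lie near the background, so the list as a whole did not stand apart in how often a peak was present. The median covered share of the 10 windows was 1.14% in WT DMSO and 5.19% in mutant DMSO, beside 0.280% and 1.60% over all protein-coding windows, and it was 0% under GSK343 in both genotypes, as it was over all windows. Within the annotated gene bodies, WT peaks were found in 2 of 10 members under DMSO (31.8% of all bodies) and 2 under GSK343 (21.4%), and mutant peaks in 3 (34.6%) and 2 (20.3%).

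**Figure D1:**
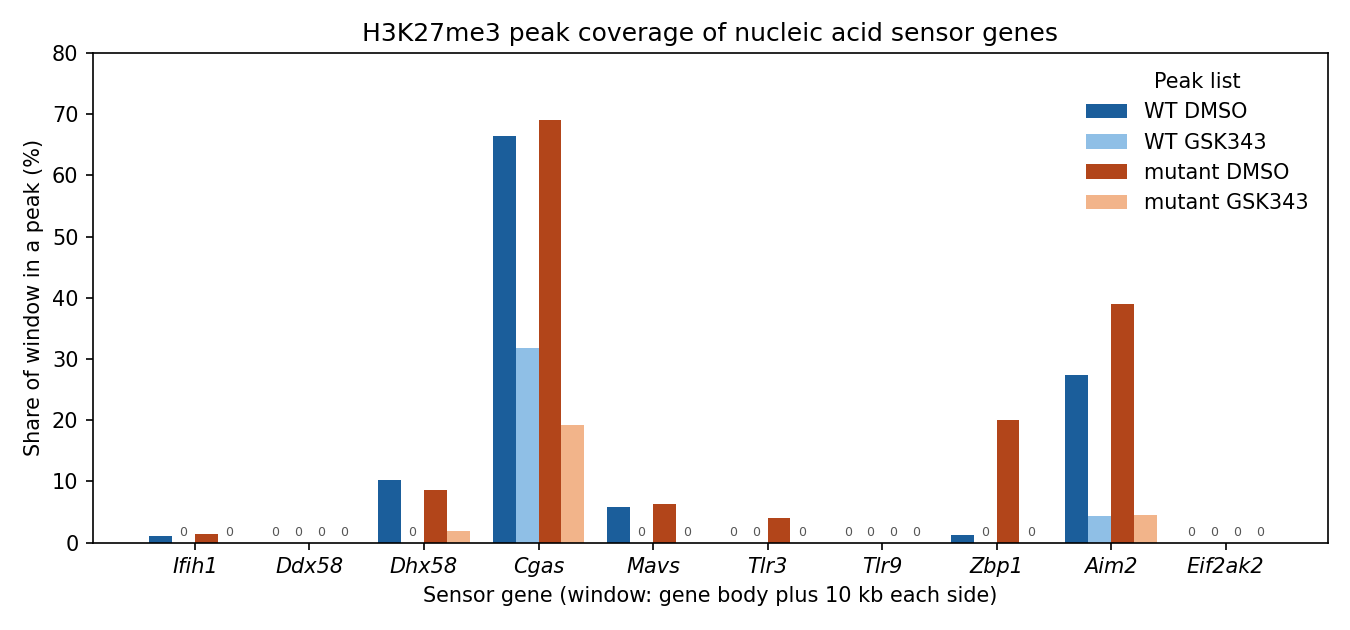
Share of each sensor gene's window (gene body plus 10 kb each side, y axis, %) lying in an H3K27me3 peak, for the 10 genes (x axis) in the 4 peak lists; 1 list per group, so there are no error bars, and a 0 marks a window with no peak. Cgas stands at 66.4% and 69.1% under DMSO and at 31.9% and 19.1% under GSK343, while Ddx58, Tlr9 and Eif2ak2 are at 0 in all 4 lists.

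Cgas, the cytosolic DNA sensor and 1 of the 3 mutated genes (chromosome 9, 78430518 to 78443237, minus strand), was the most covered member in each of the 4 lists. Its window of 32.7 kb was covered by 66.4% under DMSO and 31.9% under GSK343 in WT, and by 69.1% and 19.1% in the mutant. The 2 DMSO lists lay 2.70 percentage points apart, and both GSK343 lists lay below them. The gap under DMSO depended on how weak a peak was counted. At a −log10 p-value threshold of 5, or a fold of at least 3, the window was covered by 47.7% in WT and still by 69.1% in the mutant, 21.4 points apart. The part lost in WT was a peak beside the gene, towards Ddx43, just below both thresholds (−log10 p-value 4.87, fold 2.82). The peak over Cgas itself passed both in each list, so the gene body stayed covered by 88.7% in WT and 90.5% in the mutant. Of all protein-coding windows, 98.0% (DMSO) and 98.1% (GSK343) had a lower covered share than Cgas in WT, as did 96.7% and 96.7% in the mutant. The covered length under GSK343 was 0.480 of that under DMSO in WT and 0.277 in the mutant. Over all windows with a DMSO peak, for which 1 covered base was enough, the median ratio was 0.148 in WT and 0 in the mutant. By these calls Cgas kept more of its covered length than the median window in either genotype. That rests on weak peaks: at the −log10 p-value threshold of 5, the Cgas window was covered by 0% (WT) and 0.596% (mutant) under GSK343. The ratio over all windows was not computed at that threshold.

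Under DMSO the Cgas locus carried 2 separate blocks. In WT a block of 15.6 kb (78431954 to 78447565) ran over most of Cgas, across its start site and 4328 bp beyond it, into the neighbouring gene Mto1, which encodes an enzyme that modifies mitochondrial transfer RNA. In the mutant the same block measured 16.02 kb (78431726 to 78447747). Its fold over background, the authors' own value for each peak, was 3.24 in WT, above 90.5% of the peaks of that list, and 3.79 in the mutant, above 95.2%. The second block lay on the other side of Cgas, 3.89 kb from it in WT and 3.42 kb in the mutant, and reached into Ddx43, which encodes an RNA helicase. It was 8.67 kb wide in WT (fold 2.82) and 10.96 kb wide in the mutant (fold 3.33).

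Under GSK343 these blocks were replaced by smaller peaks. WT cells showed 4: 1 of 5.07 kb inside Cgas (78434108 to 78439181, fold 3.07), 1 of 4.34 kb over its start site (78442515 to 78446856, fold 2.99), 1 of 243 bp between them and 1 of 763 bp towards Ddx43. The mutant showed 7, of which the widest, 2.16 kb (78440547 to 78442708, fold 2.94), ended 529 bp short of the start site, and the next (78443679 to 78445204, fold 2.77) began in Mto1. A stretch of 970 bp between these peaks, holding the Cgas start site and the 0.241 kb that separate it from the annotated start of Mto1, was in no peak. The promoter of Cgas, taken as 250 bases before to 50 bases after the start site, was therefore covered by 100% in 3 lists and by 0% in mutant GSK343. That contrast between the GSK343 lists depended on the peak calls. With peaks closer than 3 kb merged the promoter was covered by 100% in the mutant as well, and with a q-value of at most 0.01 or a fold of at least 3 it was covered by 0% in WT too.

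**Figure D2:**
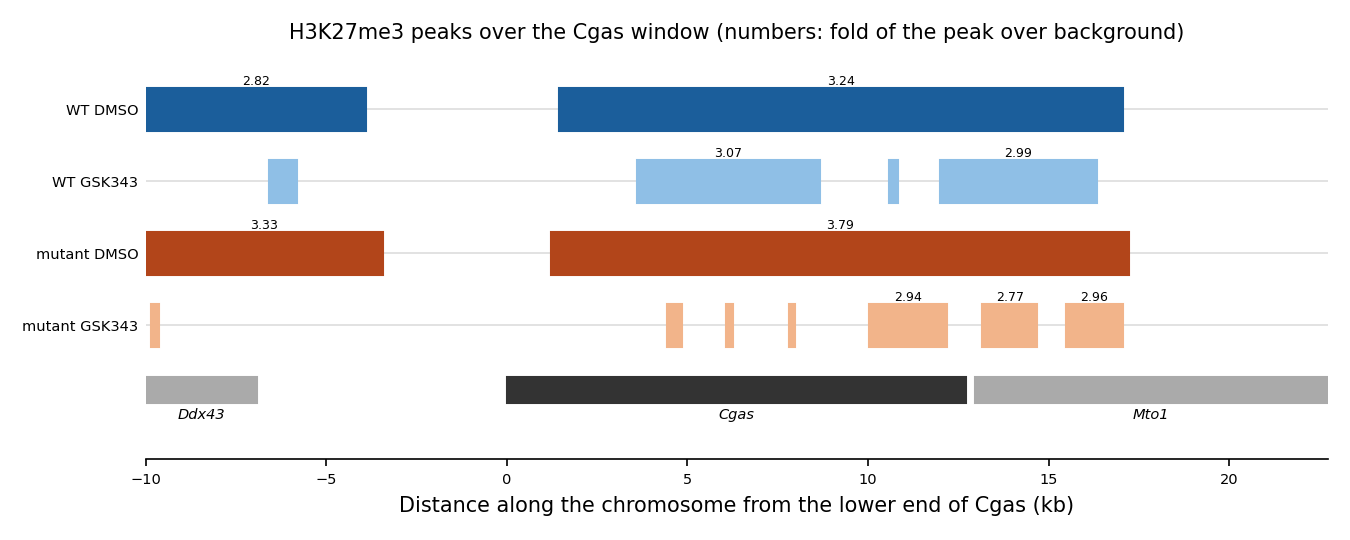
H3K27me3 peaks (coloured boxes) across the Cgas window in the 4 peak lists, against distance along the chromosome from the lower end of Cgas (x axis, kb); numbers give the fold of the wider peaks, and grey bars the annotated protein-coding genes, with Cgas in dark grey. Cgas is transcribed from right to left, so its start site lies at the right end of the dark bar, inside a peak in 3 lists and in a gap of 970 bp in mutant GSK343.

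The promoters of the 3 mutated sensors are shown because Cgas was the only one of the 8 members with an entry in the RefSeq promoter table whose promoter was touched by a peak. Peaks of WT DMSO touched 20.3% of the 21045 promoters of protein-coding genes, those of WT GSK343 13.6%, those of mutant DMSO 22.2% and those of mutant GSK343 12.6%; the member count was 1 of 8 in the first 3 lists and 0 of 8 in the last. Dhx58 and Zbp1 have no entry. The 250 bases before each start site are written 5′ to 3′ on the strand of the gene, from RefSeq on GRCm38.p6, with CpG dinucleotides, at which DNA methylation can occur, in capitals. The regions are chr9:78443238-78443487 for Cgas, chr2:62646256-62646505 for Ifih1 and chr4:40239826-40240075 for Ddx58, all on the minus strand. The upper end of the Cgas region, by coordinate, lies in the annotated body of Mto1, which begins at 78443479.
Cgas: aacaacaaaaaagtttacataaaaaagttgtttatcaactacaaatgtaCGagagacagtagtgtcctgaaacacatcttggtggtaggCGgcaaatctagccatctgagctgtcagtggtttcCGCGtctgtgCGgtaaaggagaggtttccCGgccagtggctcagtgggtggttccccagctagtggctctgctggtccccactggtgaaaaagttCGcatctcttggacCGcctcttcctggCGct
Ifih1: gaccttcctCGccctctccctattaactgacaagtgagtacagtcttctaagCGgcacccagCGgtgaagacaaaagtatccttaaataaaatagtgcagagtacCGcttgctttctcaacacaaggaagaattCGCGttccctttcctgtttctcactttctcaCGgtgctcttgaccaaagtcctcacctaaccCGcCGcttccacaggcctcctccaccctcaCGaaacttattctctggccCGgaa
Ddx58: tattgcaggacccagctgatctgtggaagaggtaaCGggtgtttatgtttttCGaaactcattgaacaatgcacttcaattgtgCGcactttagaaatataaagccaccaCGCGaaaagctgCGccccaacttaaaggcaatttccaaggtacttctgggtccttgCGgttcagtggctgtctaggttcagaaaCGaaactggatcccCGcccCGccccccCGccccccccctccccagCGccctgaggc

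These 3 sequences resembled each other in CpG content, with 9 CpG in Cgas, 11 in Ifih1 and 12 in Ddx58, although only Cgas was covered. Over the full 300 bases of the promoter table the counts were 16, 14 and 15, close to the median of 13 over all promoters. Among the other members the 300 bases held 19 CpG in Mavs, 17 in Eif2ak2, 10 in Tlr3, 5 in Aim2 and 0 in Tlr9. Promoters touched by a peak in WT DMSO had a median of 16.5 CpG, against 12 for those with no peak, so the Cgas count lay between these medians, as did those of Ifih1 and Ddx58. The core motif of the interferon-stimulated response element, written as GAAA, any 2 bases and GAAA, was searched on both strands of the 300 bases and was found in 3 of the 8 members, Ifih1, Ddx58 and Eif2ak2, against 3.38% of all promoters. The 3 matches lay within the first 50 bases after the start site, and none of the 3 promoters was touched by a peak in any list.

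Aim2, the cytosolic DNA receptor of the inflammasome (chromosome 1, 173349547 to 173466040, plus strand), was the other member with peaks in all 4 lists, but its own start site lay outside them. The window of 136 kb was covered by 27.5% under DMSO and 4.26% under GSK343 in WT, and by 39.0% and 4.54% in the mutant. Both DMSO values lay above both GSK343 values, and the mutant exceeded WT by 11.6 percentage points under DMSO. RefSeq annotates Aim2 from a far upstream end, 71.1 kb before the start site given in the RefSeq promoter table, and the first part of that body overlaps Cadm3, which encodes a cell adhesion molecule of neurons. The peaks nearest to the start site of the promoter table ended 16.5 kb before it. From that start site to the end of the gene, 45.4 kb, coverage was 0% in the 4 lists, whereas the part of the body before it was covered by 49.4% (DMSO) and 8.19% (GSK343) in WT and by 67.0% and 8.72% in the mutant. With the Aim2 window taken from the start site of the promoter table, its covered share was 0% in every list.

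The widest peak upstream of Aim2 measured 17.3 kb in WT DMSO (173361820 to 173379084, fold 3.53) and 30.6 kb in mutant DMSO (173356004 to 173386588, fold 3.40). Under GSK343 a shorter peak over the upper end of Cadm3, by coordinate, was present in both genotypes. It was 4.61 kb wide in WT (173365244 to 173369852, fold 3.36) and 4.81 kb in the mutant (173365810 to 173370623, fold 3.68). The mutant peak had a higher fold than 97.4% of the peaks in its list, and the WT peak than 81.6%. Downstream of Aim2 lie interferon-inducible relatives; Ifi203, Ifi204, Ifi205 and Mndal, of this family of DNA-binding proteins, had no peak in their windows in any of the 4 lists.

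**Figure D3:**
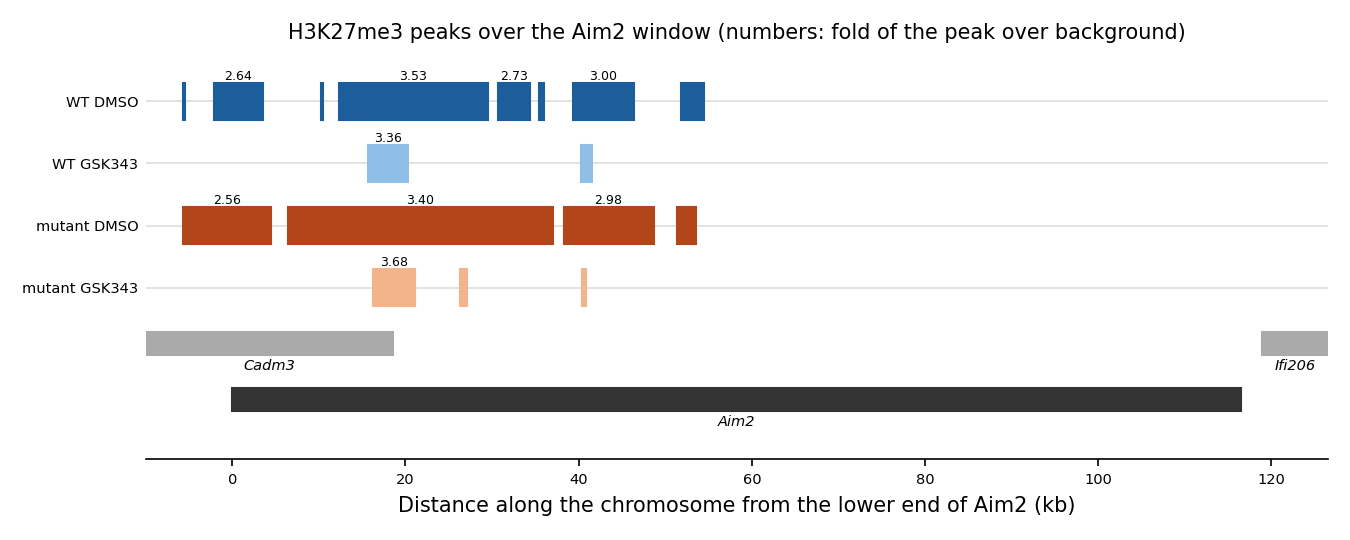
H3K27me3 peaks (coloured boxes) across the Aim2 window in the 4 peak lists, against distance along the chromosome from the annotated lower end of Aim2 (x axis, kb); numbers give the fold of the wider peaks, and bars the annotated protein-coding genes, with Aim2 in dark grey. All peaks lie to the left of the start site of the promoter table, which sits 71.1 kb along the axis.

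Ifih1, the MDA5 gene (chromosome 2, 62595618 to 62646255, minus strand), had no peak in its body or promoter in any list. Its window was covered by 1.06% in WT and 1.47% in the mutant under DMSO, and by 0% in both under GSK343. The DMSO signal came from a narrow region upstream of the gene: a WT peak of 2.58 kb began 9.25 kb before the start site (fold 2.36), and the mutant list had peaks of 919 bp at 6.87 kb (fold 2.19) and 1.89 kb at 9.88 kb (fold 2.66). Under GSK343 the nearest peak lay 538 kb beyond the window in WT, in Slc4a10, and 755 kb beyond it in the mutant.

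Ddx58, the RIG-I gene (chromosome 4, 40203777 to 40239825, minus strand), had no peak in its window in the 4 lists. The nearest peaks lay 49.4 kb (WT) and 41.0 kb (mutant) beyond the window under DMSO, and 517 kb and 60.2 kb beyond it under GSK343. Of the 3 mutated sensors, therefore, Cgas lay under broad H3K27me3 peaks in both genotypes and Ifih1 and Ddx58 lay clear of them.

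Dhx58 encodes LGP2, which modulates signalling by the other RNA receptors (chromosome 11, 100694884 to 100704271). Its window was covered by 10.1% under DMSO and 0% under GSK343 in WT, and by 8.53% and 1.86% in the mutant. The cover came from a single peak per list, 1.61 to 2.33 kb from the gene. This peak overlapped the upper end, by coordinate, of the zinc finger gene Zfp385c. The Dhx58 body and the adjoining Kat2a, which encodes a histone acetyltransferase, were at 0% in the 4 lists. In WT DMSO this peak was 2.98 kb wide with a fold of 3.46, above 92.8% of its list, in mutant DMSO 2.51 kb wide with a fold of 3.39, and in mutant GSK343 546 bp wide with a fold of 2.84. In WT GSK343 the nearest peak was 7.28 kb beyond the window, within Zfp385c.

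Mavs, the adaptor of the RNA receptors (chromosome 2, 131234063 to 131248025, plus strand), was covered over 5.75% of its window in WT and 6.32% in the mutant under DMSO, and over 0% in both under GSK343. The peaks lay upstream, with the nearer end 4.17 to 6.35 kb before the start site, in no protein-coding gene. WT had 2 of them, 764 bp and 1.19 kb wide (folds 2.34 and 2.79), and the mutant 1 of 2.15 kb. The 2 DMSO lists differed by 0.571 percentage points, and the direction of that difference turned with 4 of the processing alternatives.

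**Figure D4:**
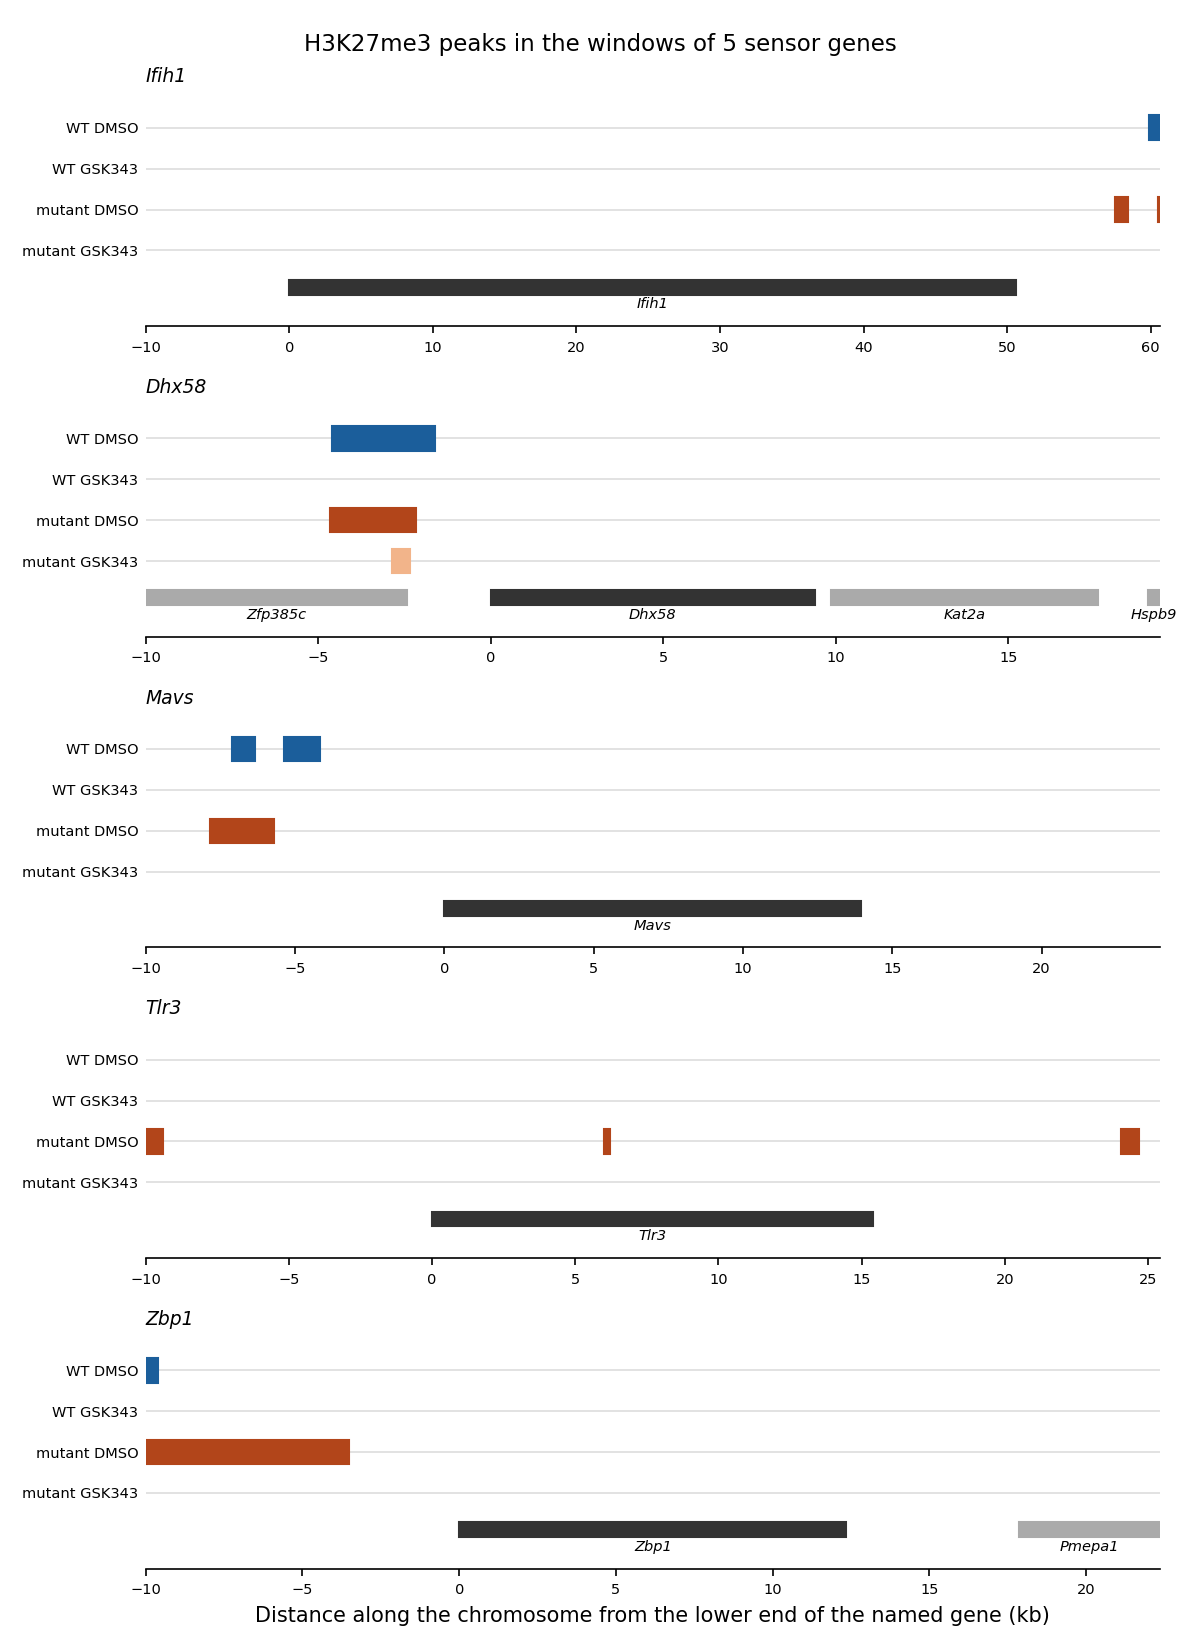
H3K27me3 peaks (coloured boxes) in the windows of Ifih1, Dhx58, Mavs, Tlr3 and Zbp1 in the 4 peak lists, against distance along the chromosome from the lower end of each gene (x axis, kb), with protein-coding genes as bars (named gene in dark grey). Apart from 1 peak of 214 bp in Tlr3, the peaks lie outside the named genes, and the only GSK343 peak is in the mutant beside Dhx58.

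Of the endosomal receptors, Tlr9 (chromosome 9, 106222598 to 106226876), the receptor for CpG DNA, had no peak in its window in the 4 lists, and its nearest peaks lay between 17.5 kb (WT DMSO) and 61.8 kb (mutant GSK343) beyond it. Tlr3, the receptor for double-stranded RNA (chromosome 8, 45395665 to 45411075), was covered over 4.07% of its window in mutant DMSO and 0% in the other 3 lists. The mutant minus WT difference under DMSO was above 0 in 10 of 10 alternatives, from 0.842 percentage points with 5 kb flanks to 15.98 with 25 kb flanks. Part of it came from the edge of the window. At the q-value, p-value and fold thresholds the peak at that edge alone was left, for 1.68 percentage points. The mutant peak at that edge, 10.6 kb wide with a fold of 3.19, ran over the neighbouring gene Fam149a and entered the window by 596 bp, while the nearest WT DMSO peak, which lay within the mutant one, stopped 1.48 kb short of it. In the 20 kb below the window coverage was 22.1% (WT) and 59.8% (mutant) under DMSO, and 6.57% and 4.98% under GSK343. The remaining mutant peaks at Tlr3 were 214 bp wide in the body (fold 2.24) and 630 bp wide beyond it (fold 2.18), wider than 1.45% and 28.7% of the peaks of that list.

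Zbp1 (chromosome 2, 173206612 to 173218959), the sensor of Z-form nucleic acid that can start necroptosis, was covered over 1.21% of its window in WT DMSO, 20.03% in mutant DMSO and 0% under GSK343 in both genotypes. The gap between the DMSO lists, 18.8 percentage points, was the largest among the 10 members. It came from 1 peak on the lower side of the gene, 1.05 kb wide in WT (173195955 to 173197004, fold 2.89) and 8.12 kb wide in the mutant (173194970 to 173203091, fold 2.53), which stopped 3.52 kb from Zbp1. The mutant peak was the wider and the WT peak the one of higher fold, and at a −log10 p-value threshold of 5, or with the same number of top peaks per list, the WT peak alone remained, which turned the difference to -1.21 percentage points. Eif2ak2, the kinase that halts translation on double-stranded RNA (chromosome 17, 78850504 to 78882572), had no peak in its window in the 4 lists; the nearest was in the sulfotransferase gene Sult6b1 under DMSO, 2.18 kb beyond the window in the mutant and 12.8 kb in WT.

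Read by treatment, the covered share was lower under GSK343 than under DMSO in 6 of the 10 members in WT (50.7% of all windows) and in 7 of 10 in the mutant (56.5%), and it was higher in none (0.439% and 0.245% of all windows). These were all the members with a DMSO peak, and among all windows with a DMSO peak 99.5% in WT and 99.9% in the mutant were lower too, so the members did as nearly every such window did. In each genotype 4 members had a peak under DMSO and none under GSK343, against 20.5% of all windows in WT and 28.6% in the mutant. Of all windows with a DMSO peak, 40.2% in WT and 50.6% in the mutant had none under GSK343, beside 4 of 6 and 4 of 7 members. Ifih1, Mavs and Zbp1 were among the 4 in both; Dhx58 was the fourth in WT and Tlr3 in the mutant. The 2 treatments in each genotype share no list with the other genotype, but every comparison between genotypes and between treatments uses the same 4 lists.

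Read by genotype, the covered share under DMSO was higher in the mutant in 6 members (51.1% of all windows) and lower in 1, Dhx58 (6.69%). Over all windows with a WT DMSO peak, the median ratio of mutant to WT covered length was 1.40; it was 0.841 at Dhx58, 1.04 at Cgas, 1.10 at Mavs, 1.39 at Ifih1, 1.42 at Aim2 and 16.5 at Zbp1. At Cgas the 2 lists lay further apart at the p-value and fold thresholds, where WT lost the peak beside the gene, as given above. The direction turned under at least 1 alternative at Dhx58, Mavs, Ifih1 and Zbp1. Under GSK343 the share was higher in the mutant at Aim2 and Dhx58 (10.9% of all windows) and lower at Cgas (22.3%), where the mutant covered 0.601 of the WT length, beside a median of 0.760 over all windows with a WT GSK343 peak. The difference at Aim2 was 0.275 percentage points and turned under 3 alternatives, that at Dhx58 was 0 under 5 of 10 alternatives, and that at Cgas turned at the −log10 p-value threshold of 5. Whether the total extent of each list has a part in these differences was not tested.

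Pooled over the 10 windows, the peaks stood above the middle of their lists under DMSO and nearer to it under GSK343. Many came from Cgas and Aim2, so they are not separate members. These 2 genes gave 2 and 8 peaks in WT DMSO and 2 and 4 in mutant DMSO. Under GSK343 they gave 4 and 2 in WT and 7 and 3 in the mutant. The comparison is with all peaks of a list, in or outside gene windows. Under DMSO their median fold was 2.73 in WT (15 peaks), above 77.8% of all peaks of that list, and 2.62 in the mutant (14 peaks), above 80.6%. Under GSK343 it was 3.02 in WT (6 peaks), above 56.5%, and 2.83 in the mutant (11 peaks), above 39.5%. The median −log10 q-value of the members' peaks was 2.48 and 2.81 under DMSO in WT and mutant, beside 1.76 and 1.81 over all peaks of those lists. Under GSK343 it was 2.02 and 1.67, beside 1.88 and 1.94.

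The genes whose 4 covered shares were most like those of Cgas, by the largest difference in any list, were Fam131c (3.31 percentage points), Slc30a3 (3.88) and Reep4 (4.35). For Aim2 they were Arhgap22 (0.436), Pdp2 (0.789) and Fbxo27 (1.18). For Tlr3, covered in 1 list, the nearest genes differed by 0.00449 to 0.00926 percentage points, a likeness that rests on a single nonzero value.

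Other genes of nucleic acid sensing were described from fixed lists in the same windows. Of 14 further sensors, 4 had a peak in WT (50.9% of all windows) and 7 in the mutant (56.6%) under DMSO. Under GSK343 the count was 1 in each genotype (30.7% and 28.1% of all windows). Oas1a and Oas2, which make the messenger that activates RNase L, were covered by 9.25% and 8.02% in WT DMSO, by 13.4% and 14.2% in mutant DMSO and by 0% under GSK343. Tlr7 and Tlr8, the endosomal receptors for single-stranded RNA, were covered by 0.752% and 1.87% in mutant DMSO and were at 0% in the other lists.

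Of 20 adaptors, kinases and transcription factors of the pathway, 7 had a peak in each genotype under DMSO (50.9% and 56.6% of all windows). Under GSK343, 5 (WT) and 3 (mutant) had one (30.7% and 28.1% of all windows). No peak in any list was found for 13, beside 41.8% of all windows. Those 13 included Unc93b1, and also Sting1, Ticam1, Myd88, Tbk1 and Irf3, which carry the signal of the DNA and endosomal sensors. Irf7, the transcription factor that amplifies interferon production, was covered by 32.6% (DMSO) and 18.3% (GSK343) in WT and by 41.6% and 22.1% in the mutant, although its body was touched in mutant DMSO alone. Traf3, a ubiquitin ligase of the pathway, varied little between the lists, from 5.30% to 6.69%, with no peak in its body.

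Among 12 nucleases and modifiers that limit recognition of self nucleic acid, 6 (WT) and 7 (mutant) had a peak under DMSO, and 3 and 4 under GSK343. Over all windows the shares were 50.9% and 56.6% under DMSO, and 30.7% and 28.1% under GSK343. Adar, which edits double-stranded RNA, was covered by 17.8% and 27.5% under DMSO in WT and mutant, and by 2.07% and 0.383% under GSK343. Rnaseh2a, a subunit of the enzyme that cuts RNA in RNA-DNA hybrids, stood at 22.3% and 26.2% under DMSO and at 17.6% and 9.91% under GSK343, all outside its body. Trex1, the exonuclease that removes cytosolic DNA, had no peak in its window. Of 7 other Toll-like receptors, Tlr5, the flagellin receptor, was covered by 17.7% (DMSO) and 3.65% (GSK343) in WT and by 30.3% and 0% in the mutant. Tlr1, Tlr2, Tlr4, Tlr6 and Tlr11 had no peak in any list, like 41.8% of all windows. None of the 53 genes in these 4 lists reached the covered share of Cgas in WT or in mutant DMSO; in mutant GSK343 1 did, Irf7.

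**Figure D5:**
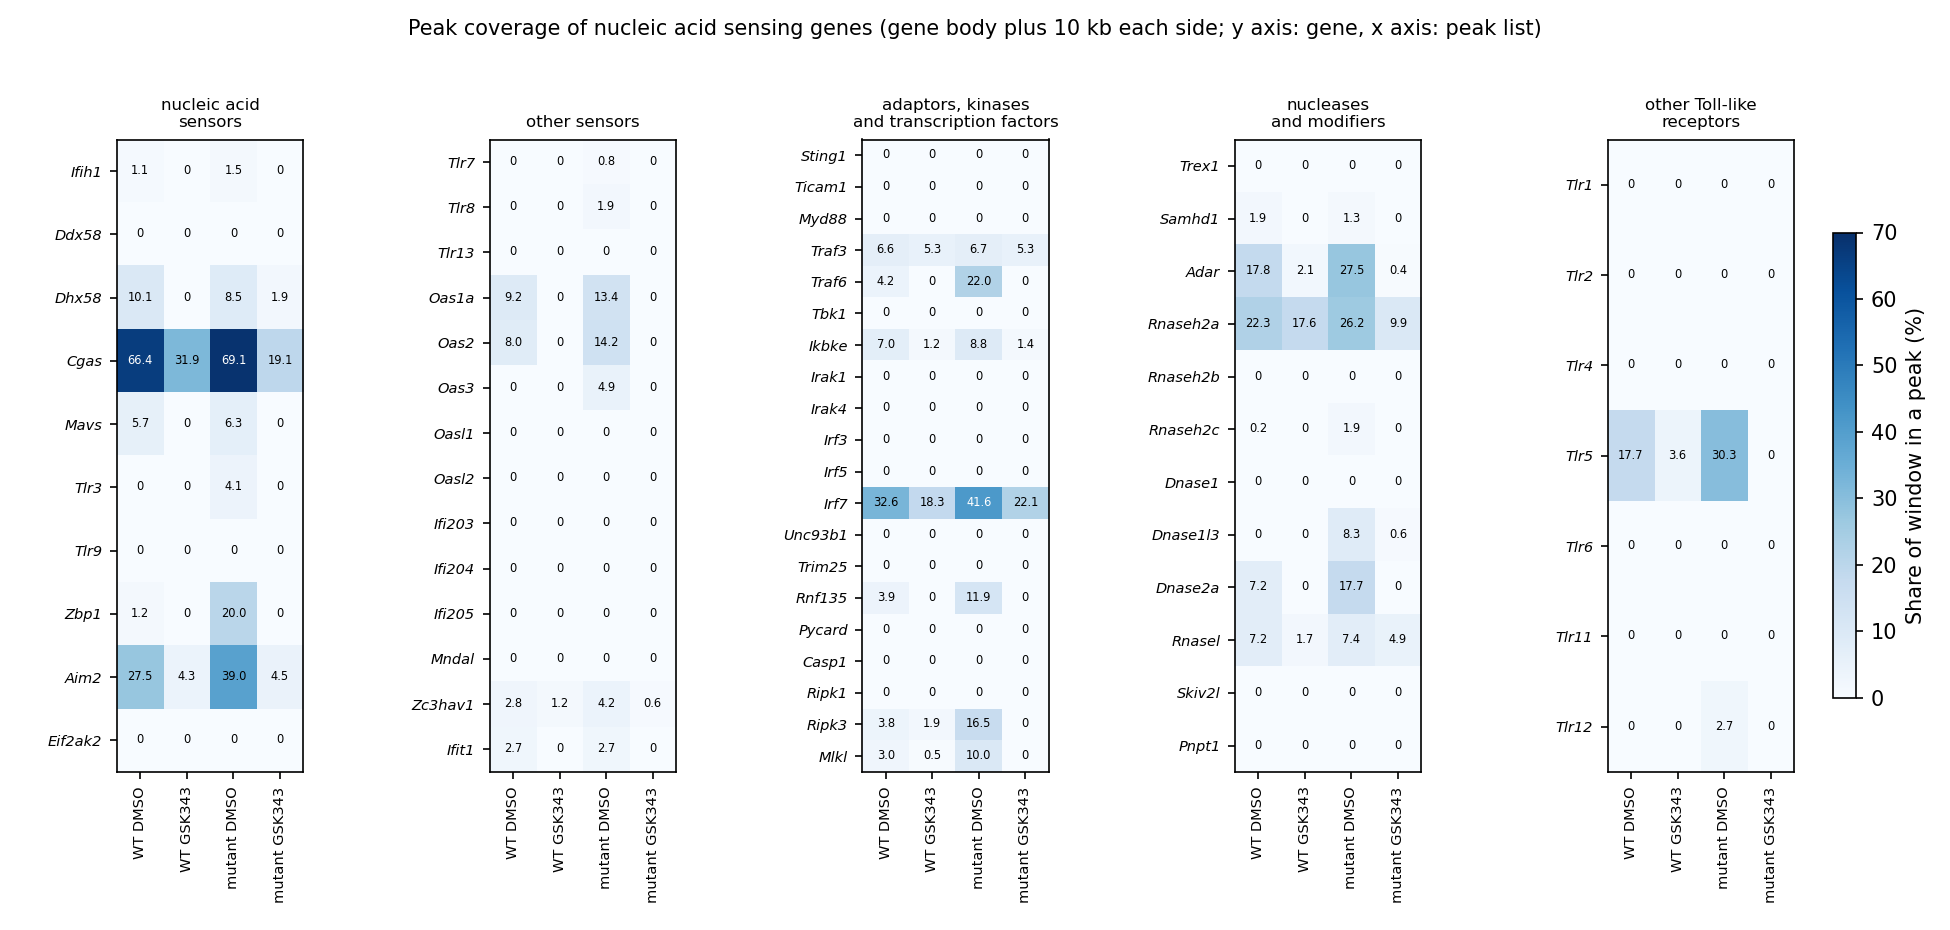
Share of each window in an H3K27me3 peak (colour and printed number, %) for the 10 sensors and 4 further lists of nucleic acid sensing genes (y axis), in the 4 peak lists (x axis). Most cells read 0; Cgas, Aim2, Irf7, Tlr5, Adar and Rnaseh2a hold the darkest rows, and the DMSO columns are darker than the GSK343 columns.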

How the data were processed

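The deposited files were 4 lists of broad peaks. Per the submitters' processing notes, reads were handled on mm10 (GRCm38) with tools that include Bowtie2 2.4.2, SAMtools 1.12, MACS2 2.2.7.1 and bedtools 2.29.2; their settings are not given in the sources used here. The file names state that blacklisted regions were taken out before deposit. The fold of each peak over background (a linear ratio) and the −log10 of its p-value and q-value are the authors' deposited values. The score of each peak, a whole number derived from the q-value, is the authors' deposited value, made before deposit, and was not used. Ranks by fold and q-value were taken within a list. Thresholds on fold, p-value and q-value were the same in the 4 lists, and the resulting covered shares were compared between lists. Folds of single peaks were also set side by side between lists. Whether read depth affects these comparisons was not tested.

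Genes, and promoters of 250 bases before to 50 after a start, came from RefSeq tables of GRCm38.p6. For each gene body plus 10 kb each side, the bases in a peak were divided by the window length (covered share); an overlap of 1 bp counted as a peak present. Positions are counted from 1. The same was done for the 21631 protein-coding genes as background. Named genes were the 10 members, their neighbours, fixed pathway and marker lists, and, for a member with a peak in its body, the 3 most alike genes. 1 gene of the B cell marker list is not reported here. The members and lists were chosen with earlier results of these data known. Python 3.11.15, numpy 2.4.6, pandas 2.3.3 and matplotlib 3.10.9 were used; on simulated intervals the covered length was recovered in 1000 of 1000 cases. With 1 list deposited per group and no values per replicate, no test, interval or replicate check was made.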

Additional observations from a re-analysis of the deposited data

Results flagged for a closer look

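At 2 members the mutant minus WT difference in covered share had opposite directions in the 2 treatments; each direction rests on 1 list per group and the difference between treatments was not tested. At Cgas it was 2.70 percentage points under DMSO (66.4% in WT, 69.1% in mutant) and -12.7 under GSK343 (31.9% and 19.1%). At Dhx58 it was -1.61 percentage points under DMSO (10.1% and 8.53%) and 1.86 under GSK343 (0% and 1.86%). The Dhx58 values come from 1 peak per list beside the gene; the peak of mutant GSK343 is 546 bp wide, and the difference under GSK343 was 0 in 5 of 10 alternatives (the q-value, p-value and fold thresholds, peaks of at least 1 kb, and the gene body alone), so the opposite directions were lost there. With 25 kb flanks they were lost as well, at 19.05 and 4.27 points. At Cgas they were lost at the p-value threshold, where both differences were above 0 (21.4 and 0.596). At that threshold WT DMSO had lost the peak towards Ddx43 and kept the one over Cgas.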

How the results depend on the processing

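The 11 alternatives, of which the Aim2 and Tlr3 bodies taken from the RefSeq promoter start site were chosen after seeing the data, gave 720 values for 73 results: 493 stayed within 1.5 times the original, 215 moved further and 12 reversed. The 493 include windows with no peak originally and none under an alternative, such as those of Ddx58 and Tlr9 in every list. Peak filters and smaller windows cannot add a peak to such a window, so these values could not move under them. The 493 are therefore not a measure of how stable the covered windows were. No paired analysis was possible because the lists hold no value per replicate, and no replicate could be left out. Apart from the filters and windows that lower a count by construction, the cause was not tested. Read depth is unknown from the files.

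Members with a peak (originally 6 and 2 in WT under DMSO and GSK343, 7 and 3 in the mutant) numbered 3 in WT DMSO and 4 in mutant DMSO with a fold of at least 3; 1 in WT GSK343 and 4 in mutant DMSO at a −log10 p-value threshold of 5; 2 and 3 under DMSO in the gene body alone; 4 in WT GSK343 with 25 kb flanks; 3, 1, 3 and 1 when 10% of the window had to be covered; and 1 in WT GSK343 from the promoter start site. Counts that stayed within 1.5 times the original were left out there and are left out below. At the p-value threshold these include 4 in WT DMSO, the same as in mutant DMSO, and 2 in mutant GSK343. With 25 kb flanks they include 8 in each DMSO list and 4 in mutant GSK343. Members with a peak under DMSO only (originally 4 in each genotype) numbered 1 in WT and 2 in the mutant at the fold threshold. They numbered 0 and 1 in the body alone, and 2 and 2 with 5 kb flanks or 10% covered. In the mutant there were 2 at the p-value threshold and 2 with the same number of top peaks. The share of all windows was not computed under these alternatives, apart from presence in the gene body, given above. These counts therefore cannot be set against the background.

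Cgas coverage under GSK343 in WT and mutant was 15.5% and 12.1% at a q-value threshold of 0.01, 0% and 0.596% at the p-value threshold, 15.5% and 0.596% at the fold threshold, and 16.6% and 9.99% with 25 kb flanks. With peaks closer than 3 kb merged it was 39.2% in the mutant. It stayed below DMSO in each genotype in 10 of 10 alternatives. The mutant minus WT difference at Cgas under DMSO was 21.4 percentage points at the p-value or fold threshold, where WT lost the peak towards Ddx43. Under GSK343 it reversed to 0.596 percentage points at the p-value threshold. Under DMSO that difference reversed at Ifih1 with peaks of at least 1 kb (-0.889) and at Dhx58 with 25 kb flanks (19.05). At Dhx58 under GSK343 it was 0 in 5 alternatives. At Mavs under DMSO it reversed at the q-value threshold (-3.50), merging (-2.34), the same number of top peaks (-3.50) and 5 kb flanks (-3.46). At Zbp1 it reversed to -1.21 at the p-value threshold and with the same number of top peaks. At Aim2 under GSK343 it reversed to -0.736 at the q-value or fold threshold or with peaks of at least 1 kb.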
